A study of Homo sapiens with 8 samples.

Results

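Cytochrome P450 enzymes were followed in HepG2, an established hepatocyte-like line from a human liver tumour, on 8 single-channel expression arrays. In 4 cultures, labelled senescent, the cells were given hydrogen peroxide (H2O2) at 0.5 mM for 60 minutes. The other 4, labelled normal, received culture medium alone and are called untreated. Both were HepG2 grown in the same serum-containing medium, and the labels place the tests of senescent phenotype 5 days after the exposure, with no separate time for taking RNA. The model is a single tumour line with no other liver cell types, and the 4 cultures of each condition are called biological replicates.

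The genes described are those whose single annotated symbol has the form of a human P450 name (CYP, a family number, a subfamily letter and a member number), apart from CYP51A1, a cholesterol synthesis enzyme. This gave 47 of the 18404 genes measured, each with 1 probe set. A list of 55 human P450 genes sorted by their best known substrates was used for classes, and the 8 genes of it that share a probe set with another symbol or have no probe set of their own symbol are not analysed here. The measured members were 11 of 17 listed drug P450s, 5 of 6 steroid hormone P450s and 6 of 7 orphan P450s. The 6 sterol and bile acid, 12 fatty acid and 7 vitamin A and D P450s were all measured. Counts for the drug class therefore do not cover all its listed genes. All 47 were found in the RefSeq gene table.

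P450 enzymes hold a heme iron that binds oxygen, and they insert an oxygen atom into fat-soluble molecules with electrons handed over by a reductase. In the liver the enzymes of the CYP1, CYP2 and CYP3 families oxidise drugs and other foreign compounds. CYP7A1, CYP27A1 and CYP8B1 turn cholesterol into bile acids, and CYP4 enzymes hydroxylate fatty acids and eicosanoids. Many of these genes are controlled by receptors that sense their substrates, such as AHR for aromatic compounds and PXR and CAR for drugs, and HepG2 is known for lower amounts of many drug P450s than hepatocytes.

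Values are deposited log2 expression levels, and each difference is H2O2 minus untreated with its standard error, from limma fitted on all 18404 genes. A gene was called where its Benjamini-Hochberg adjusted p lay under 0.05, and "rose" and "fell" are used only of called genes. Group levels are given as mean ± SD over 4 arrays each. The array medians lay between 6.85 and 6.93, and Pearson's r over all probe sets was 0.990 to 0.996 within and 0.979 to 0.985 between groups. A level below the overall median of 6.88 was not shown to lie above background, so the fold of such a gene is not known exactly. All 9 hepatocyte markers lay above that median in both groups, with albumin (ALB) at 12.55 ± 0.034 in untreated and 12.31 ± 0.081 in H2O2 arrays. Of the 9, 6 fell and 1 rose, or 77.8% called, against 46.5% of all genes above that median in at least 1 group. The iron carrier TF fell by 0.90 ± 0.094 and the fibrinogen gene FGB by 0.71 ± 0.14, and the thyroxine carrier TTR rose by 0.26 ± 0.084. Of 13 markers of other liver cell types, 8 lay below it in both groups, among them the leukocyte gene PTPRC (4.23 ± 0.080 and 4.09 ± 0.12) and the endothelial genes PECAM1 and VWF. Among those 13 markers 3 rose, ACTA2 (1.5 ± 0.072), CD68 (0.80 ± 0.071) and COL1A1, and 2 fell, PDGFRB (-1.15 ± 0.088) and CDH5 (-0.25 ± 0.073). That is 38.5% called, against 34% of all genes, and these 5 were the markers above the median in at least 1 group. The shares of both marker lists were not tested. The summed log2 level of the 13 markers was 86.3 to 86.6 in untreated and 86.9 to 88.9 in H2O2 arrays, and its part in the results below was not tested. In RNA of whole cultures, fewer cells expressing a gene and less RNA per cell cannot be told apart.

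Of the 47 P450 genes, 16 were called, 10 higher and 6 lower. The largest rise was that of CYP24A1, which breaks down active vitamin D, at 7.25-fold. CYP3A5, a drug-oxidising enzyme, was 2.74-fold higher and CYP2S1, an orphan enzyme, 2.11-fold higher. These 3 were the members with a measured difference over 1 on the log2 scale, and for members below the array median a larger change cannot be told from these values. Called drug P450s all rose (4 of 11 measured) and called sterol and bile acid P450s both fell (2 of 6). Called fatty acid P450s went both ways (2 higher and 2 lower of 12). The shares called in these classes, 36.4%, 33.3% and 33.3%, were near the 34% of all genes, and the contrast between classes was not tested. The share called, 34% of the members, equalled the 34% of all genes called, so the count itself is no result about P450s. Higher calls made up 21.3% of members against 19.2% of all genes, and lower calls 12.8% against 14.8%. The groups did not overlap in 15 members, 31.9%, against 33.7% of all genes. The median difference was -0.015 over the members and -0.022 over all genes.

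**Figure D1:**
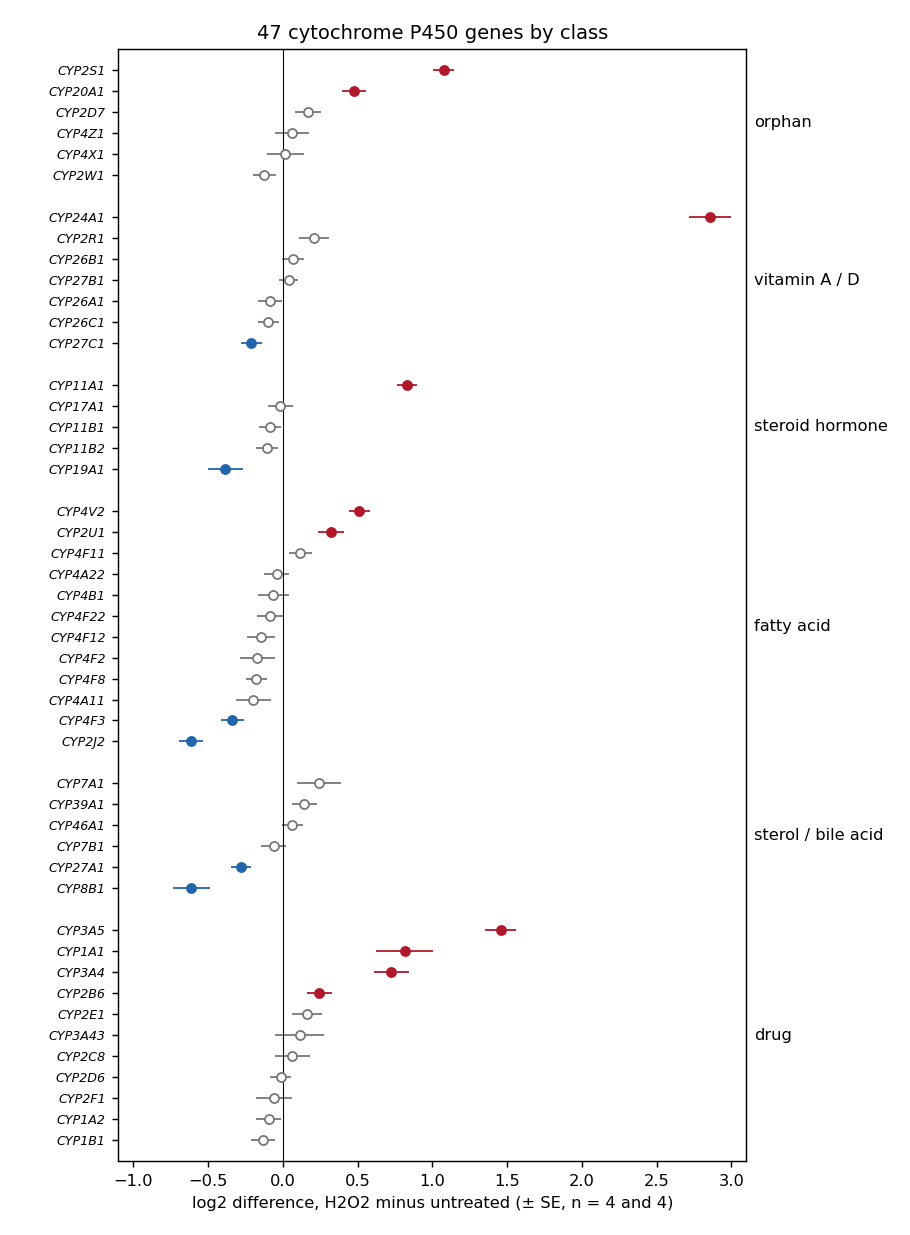
Log2 difference, H2O2 minus untreated (horizontal axis), of each of the 47 P450 genes, grouped by class, with bars for the standard error (n = 4 arrays per group). Filled red points rose and filled blue points fell at a limma adjusted p under 0.05, open points were not called. CYP24A1, at 2.86, lies furthest from 0.

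In all, 25 of the 47 genes lay below the array median in both groups, and 5 of these were called (CYP3A4, CYP2B6, CYP11A1, CYP8B1 and CYP27C1). Of the 22 members above it in at least 1 group, 11 were called, or 50%, against 46.5% of all genes with such a level. The 31 members not called all differed by less than 0.25 on the log2 scale, with adjusted p from 0.0642 upward.

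The drug P450s carried the second largest change of the family, in the CYP3A genes that lie side by side on chromosome 7. CYP3A5 and CYP3A4 oxidise a large share of medicines. CYP3A5 read 7.17, 7.18, 7.33 and 7.31 in the untreated arrays, in replicate order here and below, and 8.85, 8.96, 8.42 and 8.60 in the H2O2 arrays. Every treated array lay above every untreated array. The difference was 1.46 ± 0.10 (limma adjusted p = 1.63e-07).

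CYP3A4 read 5.15, 5.19, 5.10 and 4.95 in untreated and 6.00, 6.12, 5.61 and 5.57 in H2O2 arrays. The groups did not overlap and the gene rose by 0.73 ± 0.12 (limma adjusted p = 0.000218), although both group means were below the array median. For both genes the 2 highest treated arrays were H2O2 replicates 1 and 2. CYP3A43, the remaining CYP3A gene with a probe set of its own, was at 6.97 ± 0.30 and 7.08 ± 0.34 (0.11 ± 0.16, adjusted p = 0.658). A further CYP3A probe set, which carries several symbols and so names no gene here, was higher by 1.32 ± 0.12, from 6.96 to 8.28 (adjusted p = 4.18e-05 in limma on all 32321 probe sets). The probe sets of such close relatives may share signal, so the CYP3A values are uncertain for near-identical copies.

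The promoters of CYP3A5 and CYP3A4 are shown because both genes rose and because both hold the everted repeat ER6 (TGAACT and AGGTCA with 6 bases of any kind between them), the element known for binding PXR and related receptors, whose half-sites are in capitals. The sequences are from RefSeq (GRCh38.p14), 5′ to 3′ on the minus strand, from 250 bases before the start site to 50 after it. They cover chr7:99679947-99680246 for CYP3A5 and chr7:99784135-99784434 for CYP3A4.
CYP3A5: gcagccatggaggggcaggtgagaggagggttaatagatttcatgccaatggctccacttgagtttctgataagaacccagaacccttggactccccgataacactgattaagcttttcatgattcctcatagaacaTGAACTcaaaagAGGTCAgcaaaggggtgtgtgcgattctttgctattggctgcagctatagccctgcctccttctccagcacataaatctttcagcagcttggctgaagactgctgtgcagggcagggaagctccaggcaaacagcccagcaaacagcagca
CYP3A4: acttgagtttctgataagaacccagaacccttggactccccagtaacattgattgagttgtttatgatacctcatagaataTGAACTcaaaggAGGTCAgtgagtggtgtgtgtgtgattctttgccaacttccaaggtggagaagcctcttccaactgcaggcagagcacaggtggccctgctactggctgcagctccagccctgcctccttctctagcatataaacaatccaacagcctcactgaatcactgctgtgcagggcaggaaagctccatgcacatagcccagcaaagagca
In CYP3A5 the element began 113 bases before the start site and in CYP3A4 169 bases before it.

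Both strands of 35116 RefSeq promoter windows of 300 bases were searched for this exact spelling, and it occurred in 3 of them, or 0.00854%. Variants of the half-sites were not counted, so the share is not that of ER6 elements in general. Among the 32 members with a window in that table, the spelling was found in CYP3A5 and CYP3A4. A match of letters is a description of the window and does not show that a factor bound there. PXR itself (NR1I2) is not analysed here. CAR (NR1I3), the related drug receptor, was at 5.94 ± 0.12 and 5.91 ± 0.089, below the array median, and was not called (-0.032 ± 0.076, adjusted p = 0.796).

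Whether CYP3A5 and CYP3A4 changed unequally was asked from the log2 ratio of the 2 genes within each array, for which 4 against 4 arrays cannot give an exact p below 0.0286. The ratio was 1.98 to 2.37 in untreated and 2.81 to 3.03 in H2O2 arrays, a change of 0.73 ± 0.10. Since CYP3A4 was not shown to lie above background, the size of this change is not known exactly, and the same holds for the pairs below that include CYP1B1, CYP8B1, CYP27B1, CYP26A1 or CYP26B1. The test gave p = 0.0286 in a two-sided exact permutation test, and 0.0571 after adjustment over the 6 pairs tested, which misses the threshold. Without untreated replicate 4 a further pair reached the smallest p, and the adjusted p was 0.0429 at a change of 0.80. A change of ratio between 2 probe sets shows unequal change in signal, not different amounts of RNA.

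CYP1 enzymes activate or clear aromatic hydrocarbons, and their transcription is the classic response to the receptor AHR. CYP1A1 read 6.05, 6.34, 6.22 and 6.17 in untreated and 6.78, 7.79, 6.73 and 6.75 in H2O2 arrays. It rose by 0.82 ± 0.19 (limma adjusted p = 0.00397) with no overlap. The untreated mean of 6.19 lay below the array median, so the fold is not known exactly. The H2O2 mean of 7.01 lay above that median, but every H2O2 array except replicate 2 lay below it. H2O2 replicate 2 stood far above the other treated arrays. Without that array the difference was 0.55 and still called, with adjusted p between 0.000133 and 0.0148 over the 8 fits that each left out 1 array.

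CYP1A2, the neighbour of CYP1A1 on chromosome 15 at a distance of 23316 bases, read 7.13, 7.07, 6.81 and 6.86 in untreated and 6.79, 6.78, 6.98 and 6.95 in H2O2 arrays. The groups overlapped and the difference was -0.095 ± 0.086 (adjusted p = 0.450). CYP1B1, which also acts on estrogens, was at 5.17 ± 0.15 and 5.04 ± 0.062 (adjusted p = 0.239). The log2 ratio of CYP1A1 to CYP1B1 rose from 1.02 to 1.97 on average, a change of 0.95 ± 0.28 (two-sided exact permutation p = 0.0286, 0.0571 over the 6 pairs). Without untreated replicate 4 the change was 0.91 at adjusted p = 0.0429.

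AHR read 9.45, 9.35, 9.70 and 9.53 in untreated and 10.63, 10.51, 10.59 and 10.69 in H2O2 arrays, and rose by 1.10 ± 0.081 (limma adjusted p = 2.00e-07). Its partner ARNT did not pass (-0.026 ± 0.076, adjusted p = 0.834). Of 4 measured other genes listed as linked to AHR (TIPARP, NQO1, ALDH3A1 and NFE2L2), limma called 0. This stands against 34% of all genes and 46.5% of those above the array median, where all 4 lay. An unadjusted p under 0.05 was found in 0 of the 4, with differences from -0.021 to 0.15. The list holds no measured P450 gene, so its count does not cover AHR-linked genes in general. The difference of these 4 genes from CYP1A1 was not tested.

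The promoter of CYP1A1 is shown for the core of the xenobiotic response element (GCGTG), the site that AHR and ARNT are known to bind, in capitals. It covers chr15:74725479-74725778 of GRCh38.p14, from RefSeq, and is read 5′ to 3′ on the minus strand.
CYP1A1: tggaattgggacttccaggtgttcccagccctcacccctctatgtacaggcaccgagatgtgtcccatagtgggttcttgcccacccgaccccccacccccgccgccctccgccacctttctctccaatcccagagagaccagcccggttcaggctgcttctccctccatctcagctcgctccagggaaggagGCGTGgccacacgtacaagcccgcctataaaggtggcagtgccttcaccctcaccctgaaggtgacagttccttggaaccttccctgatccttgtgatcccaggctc
The match lies 57 to 53 bases before the start site. The search was for these 5 bases only, without the bases that flank them in a full element. Elements more than 250 bases before the start site lie outside the window and were not searched. As with ER6, a match of letters does not show that AHR, ARNT or another factor bound there. Searched on both strands, GCGTG is a common word, present in 36.5% of all 35116 windows and in those of 11 of the 32 members with a window. Of these 11 members 7 were called, against 14 called of all 32 and 34% of all genes. The 7 went both ways, since CYP2J2 and CYP27C1 fell. The share called among all genes with this word was not computed, and a link to the changes was not tested.

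CYP2B6, which oxidises bupropion and other drugs, read 5.06, 5.19, 4.84 and 5.16 in untreated and 5.21, 5.39, 5.25 and 5.38 in H2O2 arrays. The groups did not overlap, but by a narrow margin. It rose by 0.25 ± 0.085 (limma adjusted p = 0.0395) at levels below the array median, and the call was lost in 6 of the 13 other fits that tested it. Among these were the fits without untreated replicates 1 or 3 (0.24 and 0.17) and without H2O2 replicates 2 or 4 (both 0.22), at adjusted p from 0.0807 to 0.108.

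The other drug P450s gave no call. CYP2D6, which clears many antidepressants and opioids, read 7.99, 8.0, 7.95 and 8.10 in untreated and 7.98, 7.90, 8.13 and 7.97 in H2O2 arrays. Its difference of -0.015 ± 0.071 (adjusted p = 0.901) changed sign without untreated replicate 4 (0.015) or H2O2 replicate 2 (0.018). CYP2E1, the ethanol-inducible enzyme, read 6.48, 6.29, 6.21 and 6.57 in untreated and 6.41, 6.50, 6.81 and 6.48 in H2O2 arrays (0.16 ± 0.10, adjusted p = 0.258). Neither gene separated the groups. CYP2C8, an enzyme of paclitaxel clearance, was at 4.35 ± 0.26 and 4.41 ± 0.14, and the lung enzyme CYP2F1 at 5.68 ± 0.20 and 5.62 ± 0.24. The class had a median difference of 0.11. By limma 0 of 11 were lower, where 14.8% of all genes were called lower. At an unadjusted p under 0.05, 0 of 11 were lower, against 3542 of all 18404 genes. In a class of this size such counts show no direction of the class, which was not tested.

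**Figure D2:**
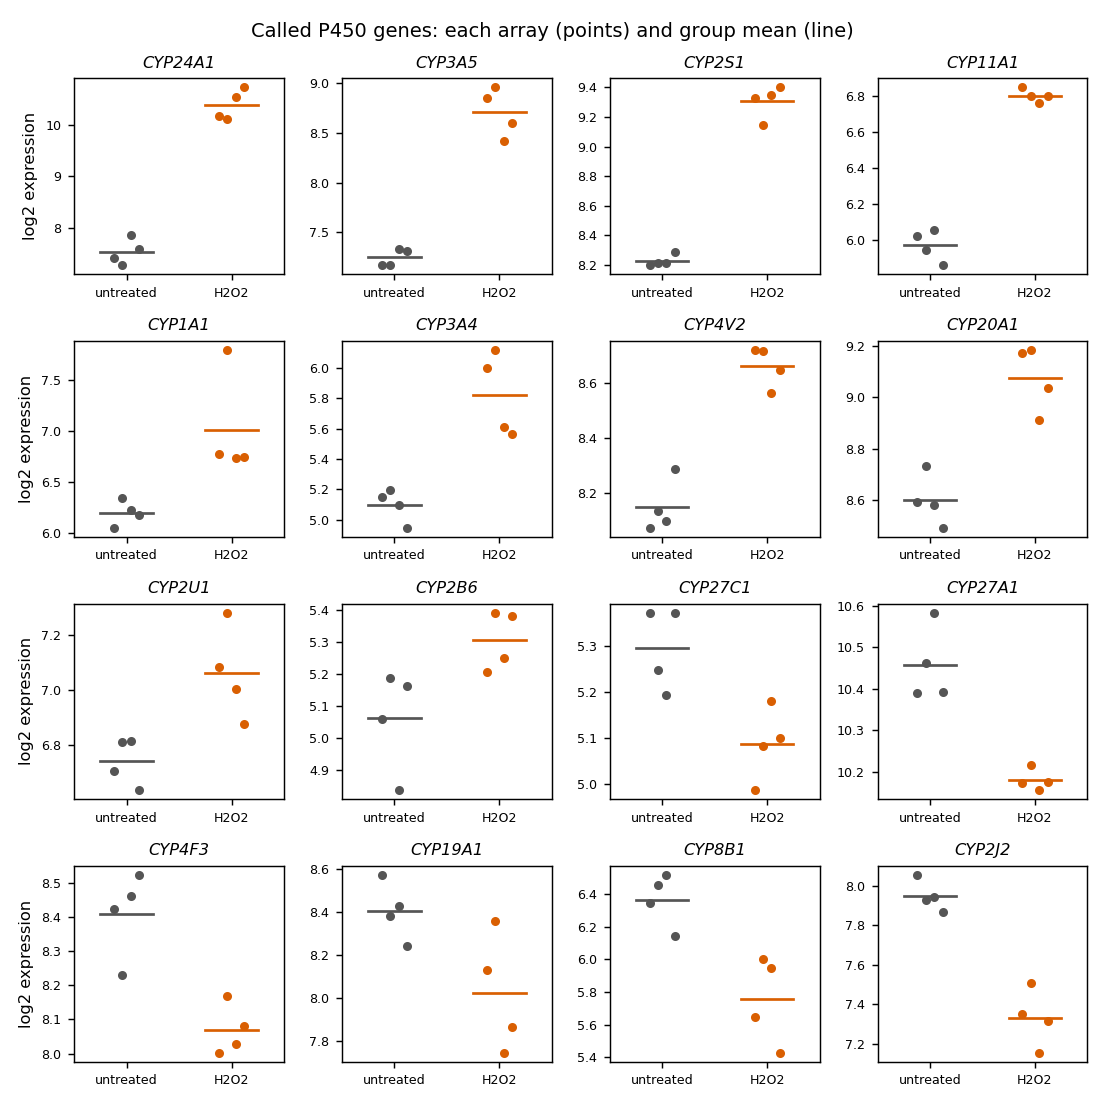
Log2 expression (vertical axis, a scale of its own for each gene, not starting at 0) of the 16 called P450 genes in each of the 4 untreated and 4 H2O2 arrays, with points for arrays and lines for group means. The groups do not overlap in 15 of the 16, the exception being CYP19A1, and 1 H2O2 array of CYP1A1 reads 7.79.

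Of the sterol and bile acid P450s 2 of 6 were called, or 33.3% against 34% of all genes, and both fell. CYP8B1, which steers bile acid synthesis towards cholic acid, read 6.35, 6.46, 6.52 and 6.14 in untreated and 5.65, 6.00, 5.95 and 5.43 in H2O2 arrays. Every treated array was lower, and the gene fell by 0.61 ± 0.12 (limma adjusted p = 0.00126) at levels below the array median. CYP27A1, the mitochondrial enzyme that oxidises the cholesterol side chain, read 10.39, 10.46, 10.58 and 10.39 in untreated and 10.17, 10.22, 10.16 and 10.18 in H2O2 arrays. It fell by 0.28 ± 0.067 (limma adjusted p = 0.00505), a small change between groups with narrow spreads.

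CYP7A1, the rate-limiting enzyme of bile acid synthesis, read 5.04, 5.90, 5.38 and 5.18 in untreated and 5.74, 5.71, 5.47 and 5.54 in H2O2 arrays. The groups overlapped through untreated replicate 2, and the difference was 0.24 ± 0.15 (adjusted p = 0.241). Without that array it was called higher, at 0.42 and adjusted p = 0.00533, still at a level below the array median. The oxysterol hydroxylases CYP7B1 (6.22 ± 0.13 and 6.16 ± 0.12) and CYP39A1 (4.32 ± 0.039 and 4.47 ± 0.17) and the brain cholesterol hydroxylase CYP46A1 (6.96 ± 0.042 and 7.03 ± 0.090) did not pass. CYP39A1 passed without H2O2 replicate 4, at 0.22 and adjusted p = 0.0442. In this class 0 of 6 genes were called higher by limma, against 19.2% of all genes. At an unadjusted p under 0.05, 0 of 6 were higher, against 4152 of all 18404 genes. With 6 genes these counts show no direction of the class, which was not tested, and the median difference was 0.0021. The ratio of CYP27A1 to CYP8B1 changed by 0.33 ± 0.14 (two-sided exact permutation p = 0.0857, 0.129 over the 6 pairs), so an unequal fall of these 2 genes was not shown.

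Fatty acid P450s changed in both directions and by less than 2-fold. CYP2J2, which forms epoxides from arachidonic acid, read 8.05, 7.93, 7.94 and 7.87 in untreated and 7.35, 7.51, 7.16 and 7.32 in H2O2 arrays. All treated arrays were lower, and it fell by 0.61 ± 0.081, or 1.53-fold (limma adjusted p = 4.08e-05). CYP4F3, which inactivates leukotriene B4, read 8.42, 8.23, 8.46 and 8.52 in untreated and 8.0, 8.17, 8.03 and 8.08 in H2O2 arrays. It fell by 0.34 ± 0.077 (limma adjusted p = 0.00326) with no overlap.

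CYP4V2, a fatty acid hydroxylase whose loss causes a retinal dystrophy, rose by 0.51 ± 0.071, from 8.15 ± 0.095 to 8.66 ± 0.072 (limma adjusted p = 6.76e-05). CYP2U1, which hydroxylates long-chain fatty acids, rose by 0.32 ± 0.087, from 6.74 ± 0.088 to 7.06 ± 0.17 (limma adjusted p = 0.0104). Neither gene's groups overlapped. The remaining 8 genes of the class differed by -0.20 (CYP4A11) to 0.12 (CYP4F11) and were not called, among them the vitamin E and eicosanoid hydroxylase CYP4F2 (8.43 ± 0.19 and 8.26 ± 0.23), CYP4F12 (7.70 ± 0.085 and 7.55 ± 0.20), CYP4A22, CYP4B1 and the skin enzyme CYP4F22. CYP4F8 came nearest at -0.18 ± 0.069 (adjusted p = 0.0642), and passed without H2O2 replicate 3 (-0.22, adjusted p = 0.0208). The class median was -0.12.

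The genes of the CYP4F subfamily lie together on chromosome 19 and are similar in sequence, as are CYP4A11 and CYP4A22 on chromosome 1, and signal may be shared between them. The ratio of CYP4F2 to CYP4F11 changed by -0.29 ± 0.15 (two-sided exact permutation p = 0.171, 0.206 over the 6 pairs). Without untreated replicate 4 the change was -0.39 at adjusted p = 0.0429, this being the further pair that reached the smallest p there. The other fits that each left out 1 array gave adjusted p from 0.206 to 0.343 in the same test, so an unequal change was not shown.

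**Figure D3:**
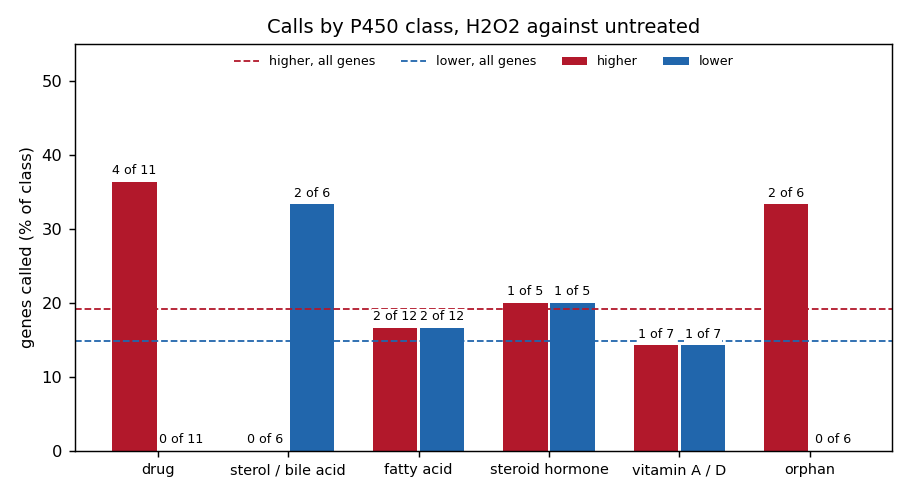
Share of the measured genes of each P450 class called higher (red) or lower (blue) in H2O2 arrays, in percent, with counts over the bars. Dashed lines give the shares over all 18404 genes, 19.2% higher and 14.8% lower, and the classes hold 5 to 12 genes each.

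Of the P450s of vitamins A and D, the vitamin D enzyme CYP24A1 stood apart. It removes the active hormone and its precursor, and is itself a well known target of the vitamin D receptor. CYP24A1 read 7.41, 7.27, 7.85 and 7.57 in untreated and 10.16, 10.12, 10.54 and 10.72 in H2O2 arrays. Every treated array was far above every untreated one, both group means lay above the array median, and the difference was 2.86 ± 0.14 (limma adjusted p = 4.26e-09).

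CYP27B1, which makes the active hormone, was at 6.82 ± 0.038 and 6.86 ± 0.084 and did not pass (0.039 ± 0.066, adjusted p = 0.714). CYP2R1, the liver enzyme that carries out the first hydroxylation of vitamin D, was at 5.46 ± 0.21 and 5.67 ± 0.13 (0.21 ± 0.10, adjusted p = 0.136), and passed without untreated replicate 3 (0.28, adjusted p = 0.0468). The ratio of CYP24A1 to CYP27B1 changed by 2.82 ± 0.20, from 0.45 to 1.06 in untreated arrays to 3.25 to 3.78 in H2O2 arrays. The exact two-sided permutation p was 0.0286, the smallest that 4 against 4 arrays allow, and 0.0571 over the 6 pairs. As with 3 other pairs, leaving out untreated replicate 4 gave adjusted p = 0.0429, here at a change of 2.84.

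The vitamin D receptor gene VDR rose by 0.23 ± 0.071 (limma adjusted p = 0.0211), reading 6.00, 6.06, 6.01 and 6.03 in untreated and 6.26, 6.09, 6.35 and 6.32 in H2O2 arrays, all below the array median. RXRA, the partner of VDR and other receptors, fell by 0.35 ± 0.073 (adjusted p = 0.00173).

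The retinoic acid hydroxylases CYP26A1 (-0.085 ± 0.078), CYP26B1 (0.070 ± 0.075) and CYP26C1 (-0.096 ± 0.068) were not called, with adjusted p from 0.318 to 0.527. The ratio of CYP26A1 to CYP26B1 changed by -0.16 ± 0.11 (two-sided exact permutation p = 0.229). CYP27C1, which desaturates vitamin A, read 5.37, 5.25, 5.19 and 5.37 in untreated and 4.99, 5.08, 5.18 and 5.10 in H2O2 arrays. It fell by 0.21 ± 0.071 (limma adjusted p = 0.0357) with almost touching groups, below the array median, and the call was lost in 9 of the 13 other fits that tested it. Those included the fits without untreated replicates 1 (-0.18) or 4 (-0.18) and without H2O2 replicates 1 (-0.18), 2 (-0.21) or 4 (-0.21), at adjusted p from 0.0706 to 0.121. Of 7 measured genes of retinoid handling 2 were called, or 28.6% against 34% of all genes. CRABP2, which carries retinoic acid to its receptor, rose by 0.90 ± 0.096 below the array median, and the retinal reductase DHRS3 fell by 0.46 ± 0.061.

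In the steroid hormone class, CYP11A1 and CYP19A1 changed in opposite directions. CYP11A1, which starts steroid synthesis by cutting the cholesterol side chain, read 6.02, 5.95, 6.05 and 5.86 in untreated and 6.85, 6.80, 6.76 and 6.80 in H2O2 arrays. The groups were widely separated for their narrow spread, and the gene rose by 0.83 ± 0.066 (limma adjusted p = 4.26e-07) at levels below the array median, so its fold is not known exactly.

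CYP19A1, the aromatase that makes estrogens, read 8.57, 8.38, 8.43 and 8.24 in untreated and 8.13, 8.36, 7.74 and 7.86 in H2O2 arrays. The groups overlapped through H2O2 replicate 2. It fell by 0.38 ± 0.12 (limma adjusted p = 0.0227), and the call was lost without untreated replicates 1 (-0.33) or 3 (-0.38) and without H2O2 replicates 3 (-0.29) or 4 (-0.33), at adjusted p from 0.0561 to 0.0749. CYP17A1, of androgen synthesis (-0.016 ± 0.086), and the adrenal enzymes CYP11B1 (-0.085 ± 0.071) and CYP11B2 (-0.11 ± 0.074) were not called, and the last 2 are near-identical in sequence.

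Of the orphan P450s, whose main substrates are less settled, CYP2S1 read 8.20, 8.21, 8.21 and 8.29 in untreated and 9.33, 9.14, 9.35 and 9.40 in H2O2 arrays. It rose by 1.08 ± 0.071 (limma adjusted p = 7.32e-08), with groups far apart and above the array median. CYP20A1 rose by 0.48 ± 0.080, from 8.60 ± 0.0998 to 9.08 ± 0.13 (limma adjusted p = 0.000353). CYP2W1, best known from fetal gut and tumours, was at 8.44 ± 0.018 and 8.32 ± 0.14 (adjusted p = 0.242), and passed without H2O2 replicate 3 (-0.18, adjusted p = 0.0431). CYP2D7, a pseudogene in the reference and close to CYP2D6 in sequence, gave 0.17 ± 0.086 (adjusted p = 0.156). CYP4X1 (0.016 ± 0.12) and CYP4Z1 (0.063 ± 0.11) lay below the array median. In this class 0 of 6 were called lower by limma, against 14.8% of all genes. At an unadjusted p under 0.05, 0 of 6 were lower, against 3542 of all 18404 genes. A direction of the class was not tested.

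The genes listed as redox partners of P450s and those of heme synthesis and breakdown changed in both directions. All measured ones but PPOX lay above the array median. Of 7 measured redox partners 2 rose and 3 fell, or 71.4% called, against 46.5% of all genes above the array median and 34% of all genes. Being on this list does not mean that a gene itself passes electrons to a P450. POR, the reductase that serves every P450 of the endoplasmic reticulum, read 10.73, 10.70, 10.88 and 10.71 in untreated and 10.62, 10.53, 10.55 and 10.36 in H2O2 arrays, and fell by 0.24 ± 0.075 (limma adjusted p = 0.0226). PGRMC2, a heme-binding membrane protein, fell by 0.48 ± 0.071 and CYB5R3, a cytochrome b5 reductase, by 0.31 ± 0.069. The ferredoxin FDX2 rose by 0.36 ± 0.082 and the outer mitochondrial cytochrome b5 CYB5B by 0.32 ± 0.078. FDX1, which passes electrons to mitochondrial P450s such as CYP11A1, CYP24A1 and CYP27A1, gave 0.17 ± 0.068 (adjusted p = 0.0785).

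Among 11 measured genes of heme synthesis and breakdown, 6 rose and 2 fell, or 72.7% called against the same 46.5% and 34%. These shares describe the lists and were not tested. ALAS1, the first and limiting enzyme of heme synthesis in liver, rose by 0.21 ± 0.067 (limma adjusted p = 0.0244). Later in the pathway UROS rose by 0.55 ± 0.082 and UROD by 0.41 ± 0.091, whereas CPOX fell by 0.79 ± 0.089 and ALAD by 0.19 ± 0.066. The remaining rises were those of heme breakdown genes, HMOX2 (0.34 ± 0.077), BLVRA (0.33 ± 0.076) and BLVRB (0.21 ± 0.064). HMOX1, also of breakdown, was not called (0.016 ± 0.083, adjusted p = 0.911).

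Of 9 measured receptors and partners that regulate P450 genes, 3 rose and 2 fell, or 55.6% called against 34% of all genes. Beside AHR and VDR, NR5A2, which helps to activate CYP7A1 and CYP8B1, rose by 0.50 ± 0.11 at levels below the array median. PPARA, the fatty acid receptor that induces CYP4A genes, fell by 0.39 ± 0.095 (limma adjusted p = 0.00556). Of 5 measured liver transcription factors, all above the array median, 3 fell, among them FOXA2 by 0.54 ± 0.067 and ONECUT1 by 0.52 ± 0.066. By limma 0 rose, against 19.2% of all genes, and 0 were higher at an unadjusted p under 0.05, against 4152 of all 18404. The 60% called stand against 46.5% of genes above the array median called in either direction. Of all genes, dim ones included, 14.8% were called lower. These shares were not tested. HNF4A is not analysed here.

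**Figure D4:**
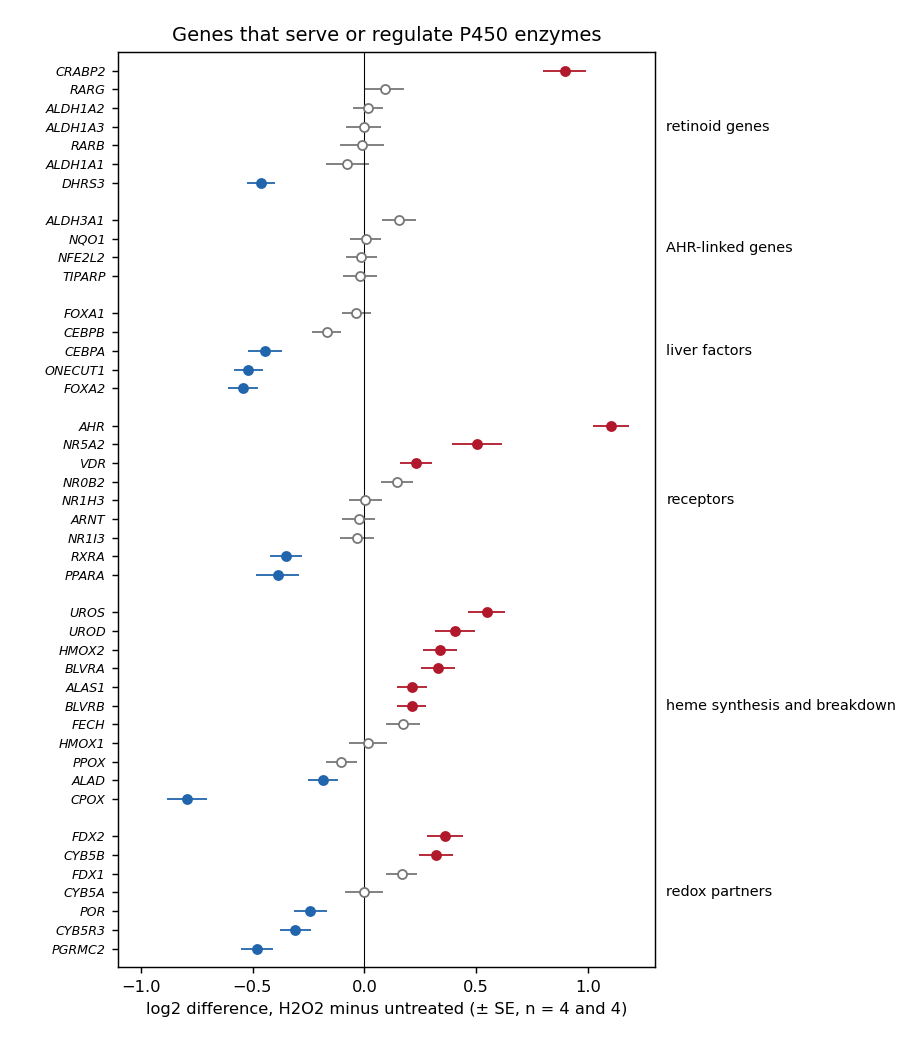
Log2 difference, H2O2 minus untreated (horizontal axis), with bars for the standard error (n = 4 arrays per group), of genes that serve or regulate P450 enzymes, grouped by list. Filled red points rose, filled blue points fell and open points were not called by limma. AHR, at 1.10, is the furthest to the right and CPOX, at -0.79, the furthest to the left.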

How the data were processed

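The authors deposited log2 expression values for 32321 probe sets on 8 arrays of labelled sense-strand cDNA. Summarization and normalization are not given in the sources used here, and limma is named, with no role or version, per the submitters' processing notes. Scanner output was not used. For arrays, their number limits the precision.

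Probe sets with 1 annotated symbol (19158 of 32321, with 1388 naming several symbols and 11775 none) gave 18404 genes, with the brightest probe set kept per gene. Groups came from the sample titles. H2O2 was compared with untreated in limma (3.58.1, R 4.3.3), by a linear model with empirical Bayes moderation and Benjamini-Hochberg adjustment over all genes, at 0.05. The code was tested on simulated data. Ratios of 6 pairs of genes were compared over arrays by an exact two-sided permutation test. Of the 8 pairs chosen, 2 lacked a probe set for a gene. Of P450 genes, all called ones are named, with values per array for the largest 6 rises and 6 falls and for 8 well known enzymes, and from each list up to 2 rises and 2 falls. COL1A1, ALB, PTPRC, PECAM1, VWF, ARNT, VDR, FDX1, HMOX1, HMOX2, BLVRA and BLVRB, and uncalled members given with values, were named after their values were seen. Promoter sequences and positions are from RefSeq (GRCh38.p14), searched and plotted in Python 3.11.15 (pandas 2.3.3, matplotlib 3.10.9). No build is named for the values. Members, classes, lists and tests were chosen with earlier results of these data known.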

Additional observations from a re-analysis of the deposited data

Results flagged for a closer look

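In 94 sets of 4 arrays (47 genes in 2 groups), the gap between an extreme array and its nearest neighbour, divided by the range of the group, was compared with Dixon's critical value for 4 samples. It was exceeded in 5 sets, and chance alone gives about 1 in 20. For CYP1A1, H2O2 replicate 2 read 7.79 against 6.78 in the next array (0.955 of the range). For CYP2S1, untreated replicate 4 read 8.29 against 8.21 (0.848). CYP46A1 was high in H2O2 replicate 3, at 7.16 against 7.0 (0.851), and CYP4A11 in H2O2 replicate 4, at 5.92 against 5.66 (0.831). CYP7B1 was low in untreated replicate 1, at 6.02 against 6.27 (0.891).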

How the results depend on the processing

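Beside the reported fit, 14 others were run: 8 that each left out 1 array, the replicate number as a block, an intensity trend in the prior variance, quantile normalization, dim genes left out, the mean of probe sets, and all probe sets tested. Of the 16 P450 calls, 13 were kept in each of these fits that tested them, while CYP19A1, CYP27C1 and CYP2B6 lost their call in 5, 9 and 6 fits. Leaving out dim genes removed 5 called members before testing, which left 2 drug P450s called higher and 1 sterol and bile acid P450 called lower. Over the fits without 1 array, 9 to 11 P450 genes were called higher and 4 to 7 lower, 0 to 1 of them a higher call among sterol and bile acid P450s. The changes of ratio ranged from 0.67 to 0.80 for CYP3A5 to CYP3A4, 0.67 to 1.07 for CYP1A1 to CYP1B1, -0.39 to -0.20 for CYP4F2 to CYP4F11 and 2.73 to 2.94 for CYP24A1 to CYP27B1. CYP2D6 ranged from -0.060 to 0.018. The causes were not tested. Replicate numbers were not shown to pair the cultures, since same-numbered arrays had correlations of deviations from -0.247 to 0.0940 and 1 of 4 correlated best with its own number. With the replicate block 10 P450 genes were called higher and 5 lower, and all-gene calls went from 6259 to 5758. Signal over background was not available to set a detection limit.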

Other observations

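Some probe sets of P450 relatives lie outside the 47 genes, and their values come from limma fitted on all 32321 probe sets. The pseudogenes CYP2A7P1 (-0.14), CYP2B7P (0.096), CYP2G1P (-0.0052) and CYP4Z2P (0.039) and the antisense RNA CYP1B1-AS1 (-0.14) were not called, with adjusted p from 0.305 to 0.964. Of the probe sets that carry several symbols, and so name no gene here, a CYP3A one was higher by 1.32 ± 0.12 (adjusted p = 4.18e-05), and the others, with symbols of the CYP2A, CYP2D, CYP4F and CYP21A subfamilies, gave adjusted p from 0.25 to 0.953 and were not called. CYP51A1 has 2 probe sets, of which the brighter fell by 0.86 ± 0.13 (adjusted p = 0.000866) and the dimmer gave -0.25 ± 0.19 (adjusted p = 0.419).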
